A study of Mus musculus with 10 samples.

Results

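Interferon-induced antiviral genes, namely Ifit1, Ifit2, Ifit3, Oasl2, Oas1a, Rsad2, Usp18, Bst2, Ifi27l2a and Rtp4, were followed across optic nerve head arrays of the mouse, where retinal axons leave the eye. They were chosen because genes of the interferon response had all been lower after pressure and had varied between pools, so both their group difference and their spread over arrays are given as descriptions without a test. All 10 genes were found, on 13 probe sets, among 12393 genes measured. The tissue came from C57Bl/6 male mice of 6 to 8 weeks. The 5 elevated pressure arrays held nerve heads of right eyes cannulated in the anterior chamber and kept at 30 mmHg for 1 h, collected 3 days later. The 5 control arrays held nerve heads of the unoperated left eyes, so that control tissue came from mice whose other eye had been operated on. Each array was a pool of 2 nerve heads, from 10 mice in all. Side of the body, cannulation and pressure cannot be told apart.

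Type I interferons bind a receptor made of Ifnar1 and Ifnar2, whose kinases Jak1 and Tyk2 activate transcription factors. These bind a short element before the start of its target genes, the interferon-stimulated response element. The target genes encode proteins that act on viral RNA, on the release of virus particles or on the signal itself, and cells of uninfected tissue also express many of them at a basal level.

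The promoters of the chosen genes are shown first. Many of the genes varied together over the arrays, and whether a shared promoter element had a part in that was not tested. RefSeq (build GRCm38.p6) gave the sequence before the annotated start of 7 of the 10 genes. Usp18, Ifi27l2a and Rtp4 had no entry. The 250 bases before each start were searched on both strands for GAAA, any 2 bases and GAAA again, the core of the response element, which reads TTTC, any 2 bases and TTTC on the other strand. Overlapping matches were kept. Of the 7 genes 5 held a match (71.4%), against 936 of 27025 genes (3.46%) and 978 of 32851 windows (2.98%) of the same length. Other interferon-related lists also held it more often than all genes did, with 8 of 13 interferon gamma-responsive genes (61.5%), 5 of 13 ligands and receptors (38.5%) and 15 of 40 other antiviral effectors (37.5%). The 10 genes most like the members were picked by their pattern over these arrays, and 7 of them are on the pathway lists. Of the 7 with a sequence 3 held a match (42.9%), so this set is not separate from those lists. The share was 2 of 12 for kinases, Stats and regulatory factors, 1 of 10 for restraining genes and 1 of 11 for sensors. The stretches around the matches follow, each read along the strand of the gene, with every matched base in capitals.
Ifit1 (chr19:34640770-34640828, + strand): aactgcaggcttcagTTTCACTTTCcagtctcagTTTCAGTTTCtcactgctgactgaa
Ifit3 (chr19:34583358-34583431, + strand): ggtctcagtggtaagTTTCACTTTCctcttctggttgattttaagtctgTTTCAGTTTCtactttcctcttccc
Oas1a (chr5:120907526-120907560, - strand): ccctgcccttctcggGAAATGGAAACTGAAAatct
Rsad2 (chr12:26456548-26456587, - strand): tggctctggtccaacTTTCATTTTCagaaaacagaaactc
Bst2 (chr8:71537572-71537617, - strand): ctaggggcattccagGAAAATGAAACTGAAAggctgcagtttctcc

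Ifit1 and Ifit3 held 2 separate matches each, on the strand opposite the gene. In Oas1a and Bst2 the capitals are 2 overlapping matches on the strand of the gene, and Rsad2 held 1 match on the opposite strand. Relative to the start, the matches lay between positions -20 and -5 in Oas1a and between positions -156 and -76 in the other 4 genes. Neither window of Ifit2, which has 2 annotated starts, nor the window of Oasl2 held these letters. Ifit2, Ifit3 and Ifit1 stand on chromosome 19 with 3 relatives between them, Ifit1bl1, Ifit3b and Ifit1bl2. The promoters of Ifit3 and Ifit3b were identical at 216 of 218 aligned bases, and Ifit3b has no probe set of its own here. Whether the Ifit3 probe set also measured Ifit3b was not tested.

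**Figure D1:**
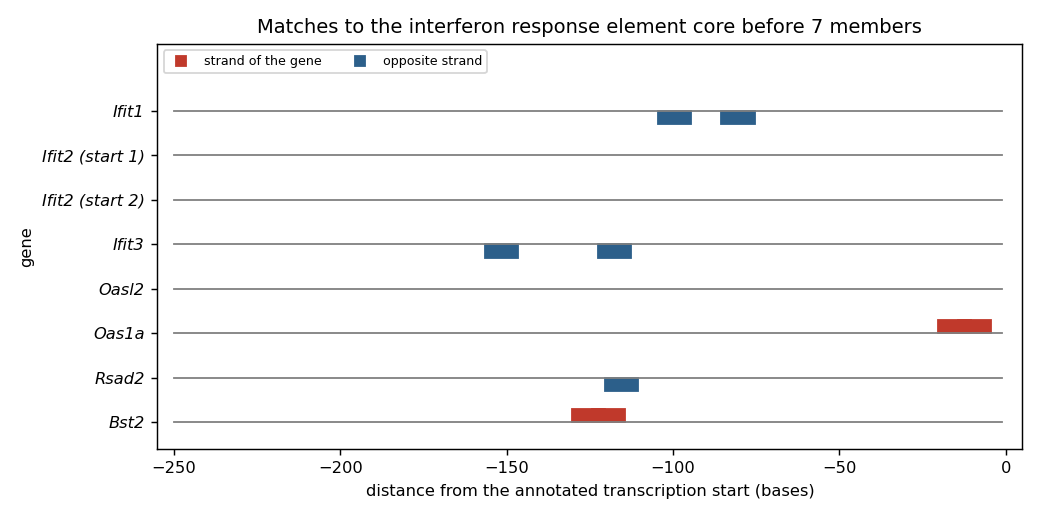
Matches to the response element core (rectangles) in the 250 bases before the annotated start of 7 antiviral genes, by distance from the start in bases. Red rectangles above a line are on the strand of the gene and blue ones below it on the opposite strand. Ifit2, with 2 starts, and Oasl2 hold none.

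All values below are probe set signal on a linear scale as the authors deposited it. Log2 fold changes are elevated pressure minus control on the scale log2(signal + 16), with the standard error of the limma fit over all genes. The median signal of the 10 arrays ran from 413.5 to 474.9. Elevated pressure replicate 1 was the least like the others. Its mean correlation with the other arrays was 0.974, against 0.986 or more for the other 9, and its Gapdh control signal at the 3' end over that at the 5' end was 2.07, against 1.53 to 1.73. The same ratio for actin did not single it out, at 2.10 there, 2.13 in elevated pressure replicate 4 and 1.65 to 1.94 on the other 8 arrays. Astrocyte markers summed to between 72122 and 81796 on elevated pressure arrays and 76040.2 and 83647 on control arrays, with 12 of 12 measured. Oligodendrocyte markers (8 of 10 measured) summed to between 39125 and 58730.3 on elevated pressure arrays and 48788 and 64501 on control arrays, with the lowest sum in elevated pressure replicate 1. All 8 had a log2 fold change below 0, with a median of -0.28, or -0.08 without that array. Photoreceptor markers (9 of 10 measured), which belong to neighbouring retina, summed to between 2086 and 9758 on elevated pressure arrays and 1567 and 9692 on control arrays. All 9 had a log2 fold change above 0, with a median of 0.60. Pigment cell markers (9 of 10 measured) summed to between 25311 and 40060.6 on elevated pressure arrays and 21138 and 51299 on control arrays. Endothelial markers (9 of 10 measured) summed to between 17429 and 22837 on elevated pressure arrays and 15188 and 21452 on control arrays. Of these marker lists endothelium was the only one with genes at an unadjusted limma p under 0.05, namely Vwf, Eng and Robo4. Their log2 fold changes were 0.36, 0.42 and 0.49. Of the 9 endothelial markers 5 were above 0 and 4 below, with Flt1 lowest at -0.26. Among all genes 2.65% were higher at that p.

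The Ifit genes encode tetratricopeptide proteins that bind foreign RNA or one another and restrain its translation. Ifit1 had 7511, 3525, 4600.1, 5069 and 4041 in elevated pressure replicates 1 to 5, against 9149.7, 4799.5, 6160.5, 6236.5 and 3553.5 in control replicates 1 to 5. The highest array of each group was its replicate 1, and the groups overlapped, with control replicate 1 above every elevated pressure array. The log2 fold change of Ifit1 was -0.25 (standard error 0.258). Ifit2 had 3947, 1814, 2739, 2427 and 1853 after elevated pressure, against 4975, 2510.4, 4256, 3897 and 2330.0 in control tissue. Here 2 elevated pressure arrays lay below every control array and 2 control arrays above every elevated pressure array. The log2 fold change of Ifit2, -0.49 (standard error 0.263), was the lowest of the 10 genes. Ifit3 averaged 4826 ± 1275 after elevated pressure and 5836 ± 1685 in control tissue (SD, n = 5 each), with a log2 fold change of -0.26 (standard error 0.220). Over the 10 arrays Ifit3 and Ifit1 were the most alike of the 45 pairs of members (r = 0.98).

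The Oas proteins are sensors of double-stranded RNA. Oas1a makes the oligoadenylate messenger that activates RNase L, and Oasl2 is a relative with a ubiquitin-like tail. Oas1a had 2640.1, 596, 609.5, 831 and 549 in elevated pressure replicates 1 to 5, against 2022, 605, 1760.1, 1331 and 725 in control replicates 1 to 5. A single elevated pressure array, replicate 1, was the highest of all 10, while the other 4 lay at 831 or less, as did control replicates 2 and 5. The log2 fold change of Oas1a was -0.44 (standard error 0.467) with all arrays and -0.85 without elevated pressure replicate 1. Its within-group spread on the log2 scale exceeded that of 99.1% of all genes. Oasl2 averaged 3065 ± 1500.4 after elevated pressure and 3699 ± 874 in control tissue (SD, n = 5 each). Its highest array was likewise elevated pressure replicate 1, at 5546, and its log2 fold change was -0.35 (standard error 0.287), or -0.60 without that array.

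Rsad2, also called viperin, makes a modified nucleotide that ends viral RNA chains, and Bst2, or tetherin, holds budding virus particles at the cell surface. Rsad2 had 3579, 1148, 2768, 1587 and 2468 in elevated pressure replicates 1 to 5, against 5406, 1802, 3822, 2471.5 and 1051 in control replicates 1 to 5. The span between highest and lowest array was 5.14-fold, the widest of the 10 genes, and both ends of it were control arrays. The log2 fold change of Rsad2 was -0.22 (standard error 0.437). It was 0.05 without control replicate 1 and -0.53 without control replicate 5. Elevated pressure replicates 3 and 5 lay above the Rsad2 mean (log2 deviation 0.26 and 0.09), while Oas1a, Oasl2 and Usp18 stood at -0.54 or lower there.

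Bst2 had 4668, 2588, 2439, 4453 and 3145 after elevated pressure, against 3600.2, 3029, 5359, 3919.8 and 3515 in control tissue. Elevated pressure replicates 1 and 4 lay among the higher control arrays and replicates 2 and 3 below every one. Its log2 fold change was -0.19 (standard error 0.212). Ifi27l2a, which encodes a small membrane protein, was the steadiest of the 10, with 1.53-fold between its highest and lowest array. It averaged 8068 ± 1327 after elevated pressure and 8516 ± 1179 in control tissue (SD, n = 5 each), a log2 fold change of -0.08 (standard error 0.133). Bst2 and Ifi27l2a followed each other (r = 0.95 over 10 arrays), while the correlation with the mean of the other 9 members was 0.68 for Bst2 and 0.56 for Ifi27l2a. In both, control replicate 3 was the highest array and elevated pressure replicate 4 lay above the gene mean. Control replicate 1, where 5 other members had their highest value, was near the mean in both (log2 deviation 0.01 in Bst2 and -0.08 in Ifi27l2a). The lowest correlation of any pair was 0.19, between Ifi27l2a and Rsad2.

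Usp18 removes the ubiquitin-like tag Isg15 from proteins and blocks further signalling at Ifnar2, so it is both a target of the pathway and a brake on it. Its values were 5236.5, 1589, 1761, 2054 and 1657 in elevated pressure replicates 1 to 5, against 5972, 2022, 4012, 3287 and 1598 in control replicates 1 to 5. In the elevated pressure group 4 arrays lay within 1589 and 2054 and the fifth at 5236.5. The log2 fold change was -0.47 (standard error 0.406), or -0.78 without that array. Of the 10 genes Usp18 was the closest to the mean of the other 9 over the arrays (r = 0.98). Rtp4, a receptor transporter protein, averaged 2427 ± 785 after elevated pressure and 2614 ± 727 in control tissue (SD, n = 5 each), with a log2 fold change of -0.11 (standard error 0.227).

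**Figure D2:**
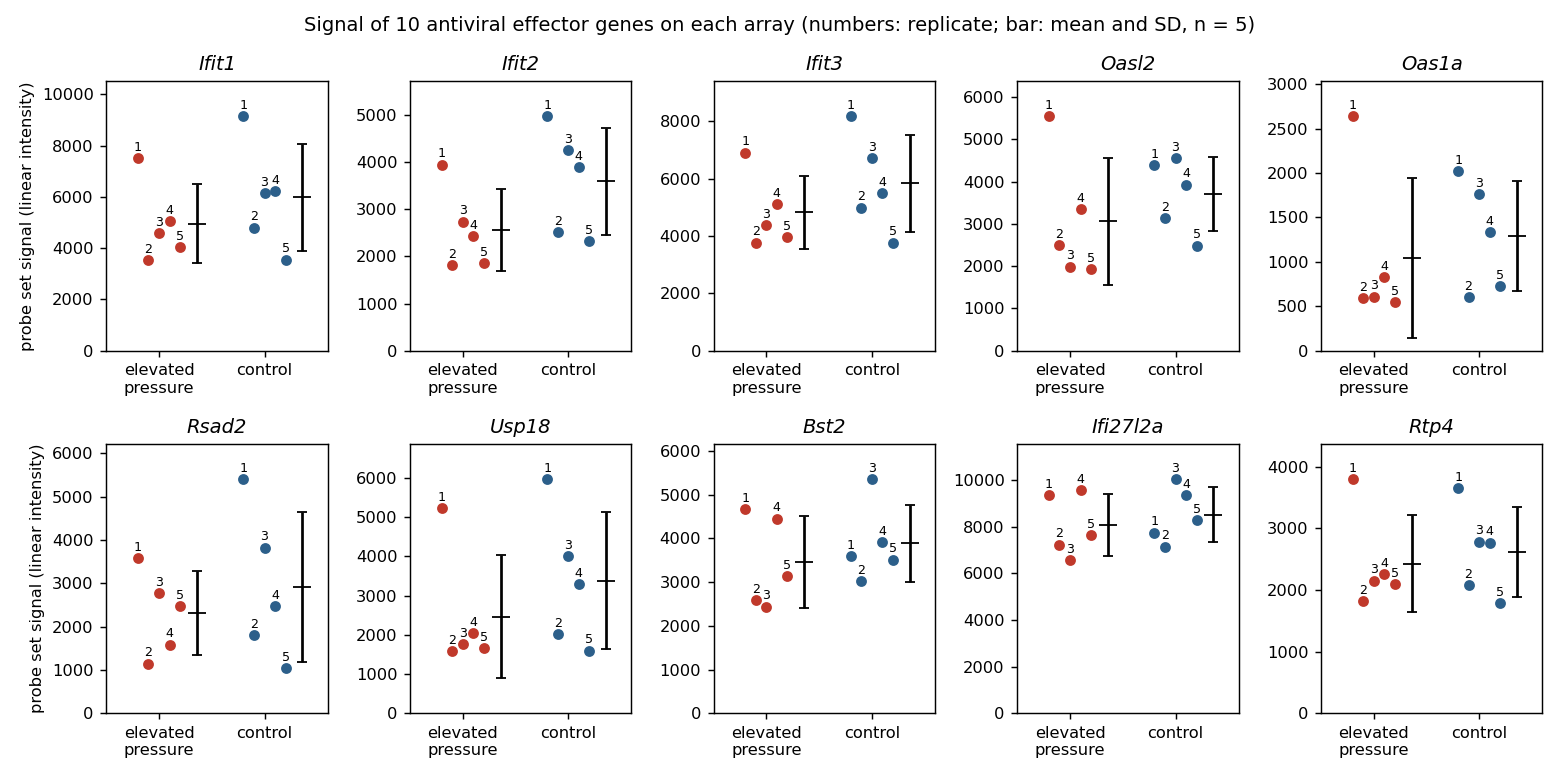
Probe set signal (linear intensity) of each gene on each array, elevated pressure in red and control in blue, with the replicate number above each point and the mean and SD (n = 5) as a black bar. In every panel the groups overlap. Elevated pressure replicate 1 is the highest of its group in 9 of the 10 genes, the exception being Ifi27l2a, where replicate 4 is at 9556.6.

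Taking the genes as a group, all 10 log2 fold changes were below 0, with a median of -0.26, as were those of 52.7% of all genes, whose median was -0.01. The members were chosen on this contrast, and nothing is read from their count. The groups overlapped in each of the 10 genes, and they did not overlap in 78 of 12393 genes (0.629%). Across all genes limma called 0 at an adjusted p under 0.05 (0%), and 492 (3.97%) had an unadjusted p under 0.05, with 0 of the 10 members among them. Rsad2 and Rtp4 had further probe sets. Those of Rsad2 had log2 fold changes of -0.29 and -0.17, and that of Rtp4 one of -0.17. The second Rtp4 probe set was dim, between 91.4 and 404 on 9 arrays and 680.0 in elevated pressure replicate 1.

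The mean log2 deviation of the 10 genes was 0.64 in elevated pressure replicate 1 and -0.55, -0.32, -0.09 and -0.40 in replicates 2 to 5, against 0.67, -0.25, 0.49, 0.24 and -0.44 in control replicates 1 to 5. The groups overlapped, with a pooled SD within groups of 0.472. All 10 genes were above their own mean in elevated pressure replicate 1 and in control replicates 3 and 4, and 9 of them in control replicate 1. None was above it in elevated pressure replicate 2 or control replicate 2. Without elevated pressure replicate 1 the median log2 fold change of the 10 genes was -0.41, and all 10 were still below 0. Without control replicate 5 it was -0.45, and without elevated pressure replicate 2 it was -0.16 and without control replicate 1 -0.17. With single arrays left out, Rsad2 and Rtp4 were above 0 without control replicate 1 (0.05 and 0.02), and the others stayed below 0 in all 10 fits.

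**Figure D3:**
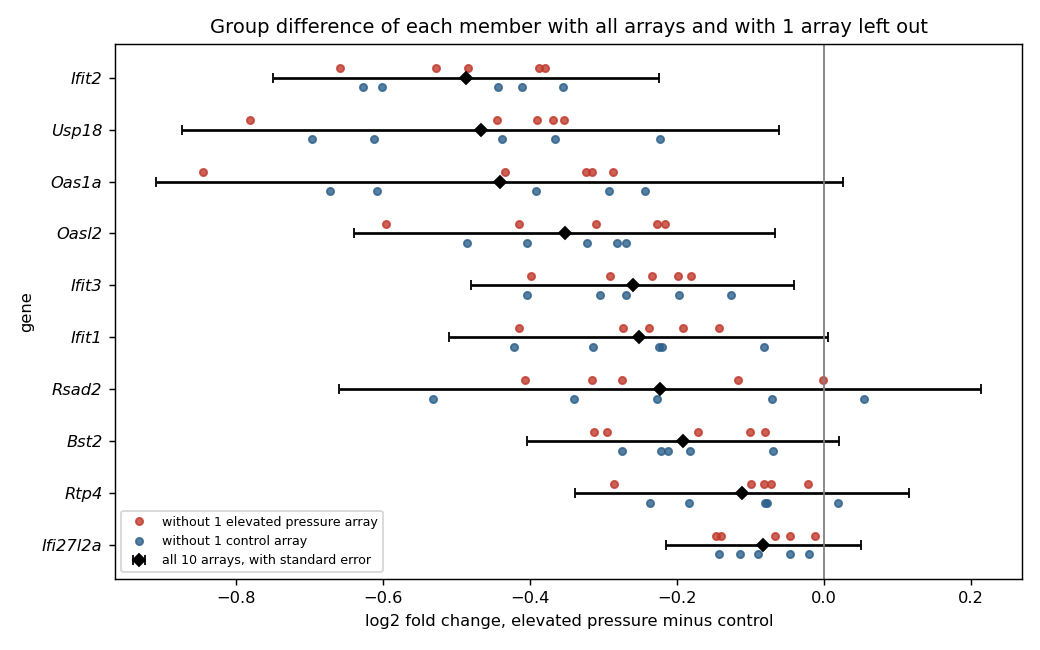
Log2 fold change of each gene, elevated pressure minus control, with all 10 arrays (black diamond, bar for the standard error) and with 1 elevated pressure array (red) or 1 control array (blue) left out. Oas1a spans -0.85 to -0.24 and Ifi27l2a -0.15 to -0.01. Only Rsad2 and Rtp4 have a point above 0.

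Markers of immune and pigment cells were set beside these values. The microglial and macrophage markers (15 of 16 measured) summed to between 40849 and 47724 after elevated pressure and between 41583 and 49316 in control tissue. Their mean log2 deviation was -0.30, 0.07, -0.11, -0.02 and 0.15 in elevated pressure replicates 1 to 5, against 0.16, -0.08, 0.17, 0.02 and -0.08 in control replicates 1 to 5. It was lowest in elevated pressure replicate 1, where the antiviral genes stood at 0.64. It was highest in control replicates 3 and 1, where the antiviral genes stood at 0.49 and 0.67. In elevated pressure replicate 5 it was nearly as high, and the antiviral genes stood at -0.40. The neutrophil markers (8 of 10 measured) summed to between 738 and 4385 after elevated pressure and between 624 and 5902 in control tissue, and the means of Mpo and Cxcr2 were under 16 in both groups. Their deviation was 0.38, -0.06, -0.81, -0.13 and 0.51 in elevated pressure replicates 1 to 5, against 0.51, -0.82, -0.28, 0.42 and 0.27 in control replicates 1 to 5. It was high in elevated pressure replicate 1 and control replicates 1 and 4, where the antiviral genes were also high. It was high too in replicate 5 of both groups, where the antiviral genes were low. The pigment cell markers stood at -0.10, -0.16, 0.06, -0.42 and 0.66 in elevated pressure replicates 1 to 5, against 1.11, -0.64, -0.27, 0.49 and -0.74 in control replicates 1 to 5. They were high in control replicates 1 and 4, as the antiviral genes were, but not in elevated pressure replicate 1 or control replicate 3. The lymphocyte and plasmacytoid dendritic cell markers (10 of 12 measured) stood at -0.16, 0.26, -0.02, -0.13 and 0.09 in elevated pressure replicates 1 to 5, against 0.26, 0.12, -0.12, -0.26 and -0.03 in control replicates 1 to 5. No marker on these 4 lists was under 16 on all arrays, and the part of these cells in the result was not tested. In bulk tissue fewer cells of a type and less RNA per cell cannot be told apart.

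The genes of which the pattern was most like the mean of the members over the 10 arrays were Slfn8 (r = 0.98), Mx1 (0.97), Mx2 (0.95), Ifih1 (0.95), Gm9706 (0.95), Cmpk2 (0.94), Nmi (0.94), Gbp7 (0.93), Oasl1 (0.92) and Igtp (0.92). These correlations rest on 10 arrays that share a scale and a tissue, and they describe the arrays without a test. With the group means removed they lay between 0.91 and 0.99. Without the 2 arrays farthest from the median, control replicate 1 and elevated pressure replicate 1, they lay between 0.83 and 0.97. Of 12383 other genes 16 had a correlation over 0.9, and 12 of the 16 were on 1 of the 6 pathway lists described next. Those lists held 95 of the 12383 genes and were chosen with earlier results of these data known. Slfn8, a Schlafen family gene, had 954, 296.5, 349, 412 and 364 in elevated pressure replicates 1 to 5, against 947, 328, 859, 554.5 and 307.5 in control replicates 1 to 5. Mx1, a dynamin-like GTPase that blocks influenza virus and is defective in the C57BL/6 strain, had 753, 75.3, 84.5, 139.6 and 100.2 after elevated pressure, against 552, 108.7, 428, 462 and 114.5 in control tissue. Elevated pressure replicate 1 was the highest array in both. Mx1 ranged 9.99-fold over the arrays, and its log2 fold change was -0.79 (standard error 0.644), or -1.34 without that array. Cmpk2, a mitochondrial nucleotide kinase, averaged 1090.4 ± 524 after elevated pressure and 1742 ± 733 in control tissue (SD, n = 5 each), with a log2 fold change of -0.66 (standard error 0.347). Ifih1, the RNA sensor MDA5, averaged 1850.1 ± 696 after elevated pressure and 1875 ± 551 in control tissue (SD, n = 5 each). Its log2 fold change of -0.03 had no settled sign, at -0.23 without elevated pressure replicate 1 and 0.09 without control replicate 1.

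**Figure D4:**
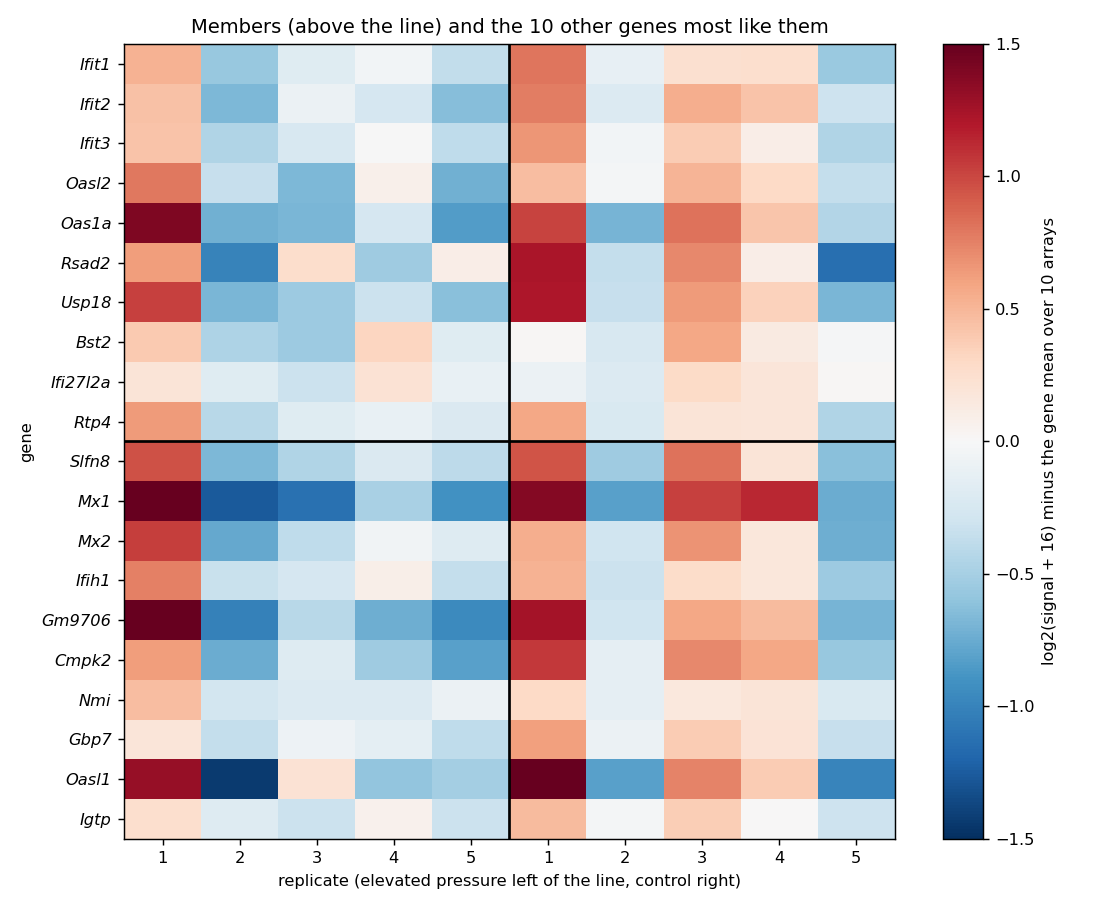
Log2(signal + 16) minus the mean of each gene over 10 arrays, in colour, for the 10 antiviral genes (above the line) and the 10 other genes most like them (below), with elevated pressure arrays left and control arrays right of the line. The colour scale ends at 1.5 in both directions. Elevated pressure replicate 1 and control replicates 1, 3 and 4 are mostly red, and elevated pressure replicates 2, 3 and 5 and control replicates 2 and 5 mostly blue.

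Upstream of these genes, interferon transcripts were dim. The mean signal of Ifnb1 was 21.3 ± 11.0 after elevated pressure and 26.5 ± 9.61 in control tissue, and that of Ifng was 13.2 ± 1.84 after elevated pressure and 10.9 ± 6.15 in control tissue (SD, n = 5 each), near the 16 added before the log. Whether such values lay above background was not known. The receptor gene Ifnar1 averaged 1939 ± 152 after elevated pressure and 2078 ± 264 in control tissue (SD, n = 5 each), with a log2 fold change of -0.09 (standard error 0.0987). Ifnar2, and Ifngr1 of the interferon gamma receptor, had log2 fold changes of -0.04 and -0.01. Of 12 measured ligand and receptor genes 0 were called by limma, 8 were below 0 and 4 above, and the median was -0.04. At an unadjusted p under 0.05 there was 1, the interferon gene Ifna5, which was dim at 16.5 ± 10.7 after elevated pressure and 33.9 ± 11.6 in control tissue (SD, n = 5 each) and had a log2 fold change of -0.65. By the same measure 1.32% of all genes were lower and 2.65% higher.

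Of 12 measured kinases, Stats and interferon regulatory factors 0 were called, with 6 on each side of 0 and a median of -0.07. Jak1 had a log2 fold change of -0.36 (standard error 0.161), the single gene of this list with an unadjusted limma p under 0.05, and -0.22 without elevated pressure replicate 1. Another of its 3 probe sets stood at 0.27. Jak2 stood at -0.15 and Stat3 at 0.10, with another Stat3 probe set at -0.20. Among genes that restrain the response, 10 were measured and 0 called, with a median of 0.02, and 0 had an unadjusted p under 0.05. The phosphatase gene Ptpn11 stood at 0.04, the dNTP hydrolase gene Samhd1 at 0.02 and the SUMO ligase gene Pias1 at -0.14. The other probe sets of Ptpn11 ranged from -0.88 to 0.57. Of 11 measured sensors and adaptors 0 were called, with a median of -0.03, and 0 had an unadjusted p under 0.05. Tlr3, a receptor of double-stranded RNA, stood at -0.18 and Zbp1, a sensor of Z-form nucleic acid, at -0.47 (standard error 0.306). The other probe set of each stood at -0.50 for Tlr3 and -0.27 for Zbp1.

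The lists below were chosen when interferon genes were already known to be lower after pressure in these data. Several of their genes also varied with the members, among them Mx1 (r = 0.97) and Gbp7 (0.93). Nothing is therefore read from the counts of these lists. Of 34 measured genes of other antiviral effectors 0 were called, 28 were below 0 and 6 above, and the median was -0.23. Of all genes 52.7% were below 0, and 1.32% were lower at an unadjusted limma p under 0.05. On this list 4 were lower at that p. Their log2 fold changes were -0.51 for Eif2ak2, the kinase PKR, and -0.60 for the galectin gene Lgals9. Those of Trim30a and of Ube2l6, a conjugating enzyme of Isg15, were -0.52 and -0.50. Eif2ak2 and Trim30a have 2 probe sets each, of which only the brighter is given. Eif2ak2 averaged 1217 ± 130 after elevated pressure and 1780 ± 446 in control tissue (SD, n = 5 each). Ifitm1, Ifitm2 and Ifitm3, which encode membrane proteins that block virus entry, had log2 fold changes of 0.07, 0.01 and -0.08 with standard errors of 0.0960, 0.0677 and 0.0744. Their within-group spread exceeded that of 22.6%, 1.73% and 5.39% of all genes. Ifitm3 averaged 11909 ± 825 after elevated pressure and 12613 ± 530 in control tissue (SD, n = 5 each). Its correlation with the mean of the members was 0.46, and those of Ifitm2 and Ifitm1 were 0.43 and 0.07. Of 16 measured genes that respond to interferon gamma 0 were called, 15 were below 0 and the median was -0.17. The GTPase genes Gbp7 and Igtp stood at -0.31 and -0.20, and the chemokine gene Cxcl10 at -0.89 (standard error 0.368), the 1 gene of this list with an unadjusted limma p under 0.05. The other Gbp7 probe set stood at -0.16. Over the 6 lists the medians without elevated pressure replicate 1 were -0.01 for ligands and receptors, -0.05 for kinases, Stats and regulatory factors, -0.01 for restraining genes, -0.10 for sensors, -0.28 for other effectors and -0.32 for interferon gamma-responsive genes.

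**Figure D5:**
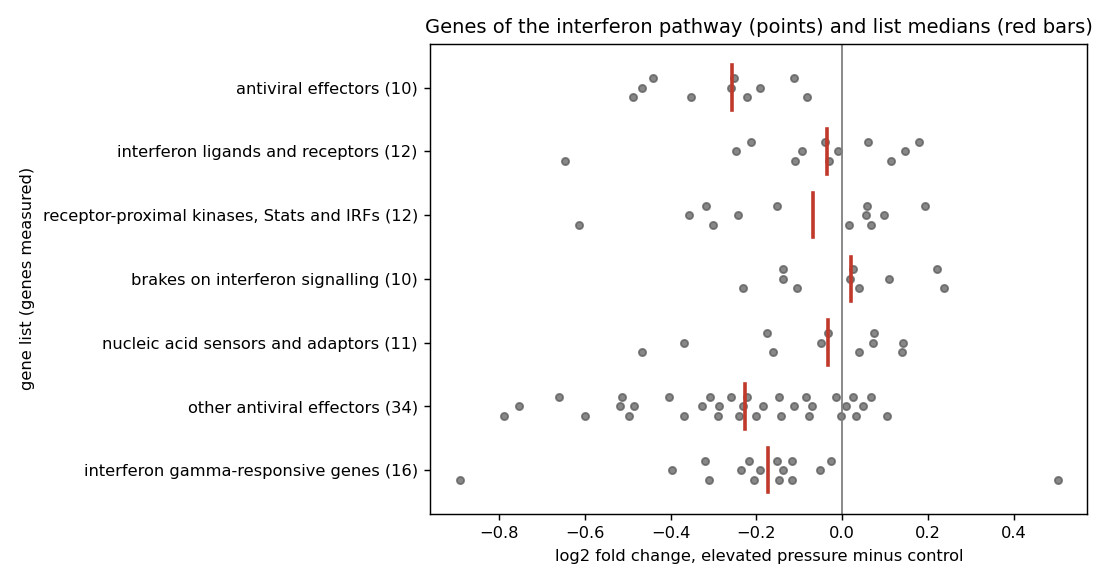
Log2 fold change, elevated pressure minus control, of each measured gene (points) on the list of members and on 6 lists of the interferon pathway, with the list median as a red bar and the number of genes measured in brackets. The medians are -0.26 for the members, -0.23 for other antiviral effectors and -0.17 for interferon gamma-responsive genes, and the other 4 lie between -0.07 and 0.02.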

How the data were processed

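The intensity values deposited by the authors are linear and cover 22690 probe sets on 10 arrays. How they were summarised and scaled stays unstated in the labels. Array medians were unequal. Per the labels' protocols, 30 ng of total RNA with an integrity number over 9.1 was amplified and labelled with biotin.

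Probe sets with 1 gene symbol in the platform annotation (20380) were used. Another 691 with several symbols, 1555 without a symbol and 64 controls were left out. A gene was represented by its probe set of highest mean log2(signal + 16), which gave 12393 genes. Elevated pressure was compared with control in limma 3.58.1 (lmFit and eBayes, R 4.3.3), without covariates, with p-values adjusted over all genes by the Benjamini-Hochberg method, and the fit was tested on simulated data. Equal replicate numbers are not said to be the same mice, and no block was used. The control eyes were the other eyes of the operated mice, while the fit treats all arrays as independent. Arrays are labelled as biological replicates, and their number limits the precision. Members and gene lists were chosen with earlier results of these data known. Named were all members, the 3 brightest genes of each of 6 pathway lists and the 10 genes most like the members' mean. Ifna5, Ifnb1, Ifng, Eif2ak2, Lgals9, Trim30a, Ube2l6, Vwf, Eng, Robo4, Flt1, Mpo and Cxcr2 were named outside this rule after their values were seen. So were the Oas relatives and Ifi27l2b given under other observations. Alternatives were quantile normalization, equal medians, pseudocounts of 1 and 64, other uses of probe sets, a filter on the dimmest 25% or 50% of genes, other variance models, array weights, a replicate block and left-out arrays. Promoters were searched in Python 3.11.15 and aligned with Biopython 1.88.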

Additional observations from a re-analysis of the deposited data

Results flagged for a closer look

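Of 72 groups of 5 arrays examined, 8 held an array whose gap to its nearest neighbour took up more than 0.710 of the range of the group on the log2 scale, and chance alone flags about 1 in 20. The count is not read against that rate, since the members were chosen for varying between pools and Slfn8, Mx1, Gm9706 and Nmi for following them. In 6 of the 8 it was elevated pressure replicate 1 that lay above its group, so these are the same array in genes that vary together. Oas1a stood at 2640.1 there, against 548.8 to 831.1 on the other 4 arrays (gap 0.738 of the range). Usp18 stood at 5236.5, against 1589 to 2054 (0.785). Among the genes most like the members, Slfn8 stood at 954, against 296.5 to 412 (0.722), and Mx1 at 752.8, against 75.3 to 139.6 (0.75). Gm9706 stood at 2832, against 387 to 593 (0.789), and Nmi at 2603, against 1559 to 1773.5 (0.749). For the receptor gene Ifngr1, elevated pressure replicate 3 was high at 2441, against 1876.5 to 1979 (0.799), and control replicate 3 was low at 1729, against 2100.5 to 2210.3 (0.792).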

How the results depend on the processing

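Under all 26 alternative settings limma called 0 genes. The median log2 fold change of the members, -0.26, stayed below 0 in all 26. It ran from -0.45 to -0.16 with 1 array left out and from -0.36 to -0.17 with both arrays of a replicate number left out, and between 8 and 10 members were below 0. Of 250 single-member values, all from refits of the same 10 arrays, 246 were below 0. The 4 others were Rsad2 (0.05) and Rtp4 (0.02) without control replicate 1, and Bst2 (0.04) and Ifi27l2a (0.05) without replicate 3. The members were chosen on this contrast, so nothing is read from these counts. Of the 10 genes most like the members, 7 to 9 remained under the 13 settings tried. The number of genes at an unadjusted p under 0.05, 492 (3.97%), was 1044 (8.42%) without elevated pressure replicate 3 and 947 (7.64%) without replicate 3. It was 1004 of 22626 single probe sets (4.44%) and 220.0 of 6196 genes (3.55%) without the dimmest 50%, so there the share moved little. With the mean over probe sets Ptpn11 stood at -0.09 and Tlr3 at -0.34. With the replicate number as a block the members' median was -0.26 and 0 genes were called. Same-numbered arrays did not deviate together in all pairs (r from -0.08 to 0.21, 2 of 5 over 0.1). Pairs with different numbers ran from -0.20 to 0.17. Of the 5 elevated pressure arrays 2 were most like the control array of the same number. Dim genes and unknown detection limit what can be said of interferon transcripts.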

Other observations

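Other Oas relatives with a probe set of their own were looked at after the values were seen. Oas2 had a mean signal of 116 ± 142 after elevated pressure and 109 ± 53.4 in control tissue, and Oas3 one of 167 ± 236 after elevated pressure and 228 ± 198 in control tissue (SD, n = 5 each). Their log2 fold changes were -0.31 and -0.75, or -0.82 and -1.35 without elevated pressure replicate 1. Oas1b, at 109 ± 40.5 after elevated pressure and 134 ± 37.5 in control tissue, correlated with the mean of the members at 0.90 over 10 arrays. Oas1c, at 115 ± 10.3 after elevated pressure and 120.1 ± 39.7 in control tissue, correlated at 0.37. Oas1e, at 58.2 ± 10.9 after elevated pressure and 60.5 ± 19.6 in control tissue, correlated at -0.37. The Ifi27l2a relative Ifi27l2b had 112 ± 43.0 after elevated pressure and 109 ± 38.9 in control tissue, a log2 fold change of 0.01.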
